A study of Mus musculus with 6 samples.

Results

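The genes described here are 33 genes of glycolysis and of the response to low oxygen, measured in cultured mouse tail tissue fibroblasts. They were taken by name, as a list of pathway members, and every probe whose transcript accession maps to one of them was read on all 6 arrays. The 33 genes stand among 45616 genes on the array and are covered by 58 probes, 18 of them by 1 probe and 15 by more. Each gene is represented by its brightest probe, which was well above background on all 6 arrays for each of the 33, so none was lost to the filter on dim probes that left 23060 genes for testing.

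All cells came from C57BL/6 mice that carry a conditional (F/F) allele of lysyl hydroxylase 2 (LH2, encoded by Plod2) and a CAG-Cre transgene, which is driven by a promoter active in most cell types. LH2 cKO_no.1 cells received 24 h of tamoxifen and then medium that contained tamoxifen. LH2 cKO_no.2 cells received 24 h of tamoxifen and then medium without it. Control cells carried the same alleles and were kept in medium without tamoxifen, so that no group combines tamoxifen with an intact gene, and the drug and the deletion cannot be told apart in either contrast against control. There were 2 arrays a group. The series' design text names the contrast of no.1 with no.2. The file names give different hours to the arrays within each tamoxifen group, whereas the labels give 24 h for all 4. The cells grew on collagen I in DMEM without sodium pyruvate, with serum, and the labels give no oxygen setting. Whether the 2 arrays a group holds stem from separate cultures is not stated in the labels. The p-values therefore reflect how far these samples scatter, and that scatter may be technical. In the tamoxifen groups it may also hold a difference between the hours in the file names, which was not tested.

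In glycolysis a cell splits glucose into pyruvate through a chain of cytosolic enzymes, and lactate dehydrogenase turns pyruvate into lactate. Hypoxia-inducible factors (HIFs) are transcription factors made of an oxygen-regulated alpha subunit (Hif1a or Epas1) and a stable partner. With oxygen present, prolyl hydroxylases (Egln1 and Egln3 among them) mark the alpha subunit for destruction, and at low oxygen the subunit accumulates and binds a short DNA motif near genes for glucose transport, glycolysis, blood vessel growth and pH control. The alpha subunits are regulated mostly as proteins, which an array of RNA does not read. The prolyl hydroxylases and the lysyl and prolyl hydroxylases of collagen belong to 1 enzyme superfamily that uses oxygen, iron and 2-oxoglutarate.

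Values are levels on the log2 scale, the processed signal of a probe minus the 75th percentile of its own array, so that a level of 0 is that percentile. A gene is said to have risen or fallen where limma's test over all 23060 genes gave a Benjamini-Hochberg adjusted p under 0.05. The 75th percentile itself was 95.9 and 85.1 signal units in no.1, 55.1 and 56.9 in no.2, and 34.2 and 33.7 in control, so the choice of scale matters for small changes. When arrays were scaled to 7 spike-in probes instead, the median change of all genes moved to 1.82 in no.1 and 1.18 in no.2, against -0.12 and -0.10 with the percentile scaling. In the text that follows, a change is relative to the array's own 75th percentile unless the spike-in scale is named.

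Across the arrays, Plod2, the targeted gene, had levels of -1.60 and -2.31 in no.1, -2.05 and -2.73 in no.2, and 0.30 and 0.052 in control (log2 fold changes of -2.13, adjusted p = 0.00613, and -2.57, adjusted p = 0.00768). On the spike-in scale its change in no.1 was -0.19 and was not called (adjusted p = 0.593), while in no.2 it stayed called lower. The labels do not say whether the Plod2 probe lies inside the deleted part. Of 12 fibroblast markers 10 were well above background on all 6 arrays and Lum was on none. Their summed signal, as a multiple of the array's 75th percentile, was 2219 to 2268 in no.1, 2439 to 2814 in no.2 and 5036 to 5337 in control. Most of that distance is 1 gene, S100a4, at 1088 to 1115 in no.1, 948 to 1447 in no.2 and 3558 to 3798 in control. The other 11 markers, taken apart after this was seen, summed to 1132 to 1153 in no.1, 1368 to 1492 in no.2 and 1478 to 1539 in control. Of the 10 fibroblast markers tested, S100a4 among them, 1 rose and 5 fell in no.1 (60% called, against 47.8% of all genes). In no.2, 1 rose and 4 fell (50% called, against 28.3%). The marker that rose was Fn1 in both contrasts (1.22 and 1.27). Of those that fell, 2 in no.1 and 1 in no.2 lay above control on the spike-in scale. Of the markers of other cell types, 4 of 8 macrophage markers (Adgre1, Fcgr1, Lyz2 and Ptprc), 5 of 8 endothelial (Cdh5, Cldn5, Emcn, Tie1 and Vwf), 6 of 8 keratinocyte, 5 of 8 skeletal muscle, 3 of 6 adipocyte and 3 of 6 chondrocyte markers were well above background on no array. Others were bright on all 6, such as Itgam of the macrophage list (levels of 4.66 and 4.85 in no.1, 4.95 and 4.74 in no.2, and 5.21 and 5.11 in control), and Trp63 and Acta1 had levels above 3 on every array. Of 4 macrophage markers tested 1 was called in each contrast (25%, against 47.8% and 28.3% of all genes). It was Csf1r, which fell (-2.40 and -2.07) but was not called on the spike-in scale. Of 3 adipocyte markers tested, 1 rose and 2 fell in no.1 (100% called), and 1 fell in no.2 (33.3%). Those that fell lay above control on the spike-in scale. Of 3 chondrocyte markers tested, 2 fell in each contrast (66.7%). Of 3 skeletal muscle markers tested, 2 fell in no.1 (66.7%) and none was called in no.2. No endothelial or keratinocyte marker was called. The summed macrophage signal, most of it from Itgam, was 28.8 to 32.8 in no.1, 30.0 to 36.8 in no.2 and 45.9 to 49.0 in control. The part of these shifts in the results was not tested, and in bulk RNA fewer cells of a type and less RNA per cell cannot be told apart. The arrays of 1 group differed by a robust SD of 0.42 in no.1, 0.49 in no.2 and 0.17 in control over all genes tested. All 6 arrays shared 1 slide and 1 scan, but control lay in 1 row of it and the tamoxifen groups in the other, so row and treatment cannot be told apart.

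In both tamoxifen groups Egln3 rose while Ndufa4l2, Aldoc and Adm fell by a wide margin. By its brightest probes most of the glycolytic chain lay somewhat below control, a direction that turned when the arrays were scaled to spike-in probes. Against control, 2 members rose and 10 fell in no.1, which is 36.4% of the 33 members, where 47.8% of all genes tested were called (21.4% higher and 26.4% lower). In no.2, 1 member rose and 8 fell, or 27.3% of the members, where 28.3% of all genes were called (12.1% higher and 16.2% lower). The share of members called was thus no larger than that of all genes in either contrast. The median log2 fold change of the 33 members was -0.77 in no.1, with all genes at -0.12, and -0.63 in no.2, with all genes at -0.10. Both contrasts use the same 2 control arrays. On the spike-in scale the sign of the members' medians turned, to 1.16 in no.1 and 0.66 in no.2, both still below the medians of all genes on that scale (1.82 and 1.18). That order did not hold throughout in no.1. There the members lay above all genes with normexp background correction (-0.067 against -0.23) and with no filter on dim probes (-0.77 against -0.84). In no.2 they stayed below under both (-0.24 against -0.12, and -0.63 against -0.56).

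Many members separated the groups without passing the test. The 2 arrays of no.1 lay wholly above or wholly below both control arrays for 28 of the 33 members (84.8%), 16 of which were not called, and for 81.5% of the 23060 genes tested. The same held for 28 members in no.2, 19 of them not called, and for 74.5% of all genes. At an unadjusted p under 0.05 there were 18 of the 33 members in no.1 and 20 of the 33 in no.2, against 13081 and 10354 of the 23060 genes.

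**Figure D1:**
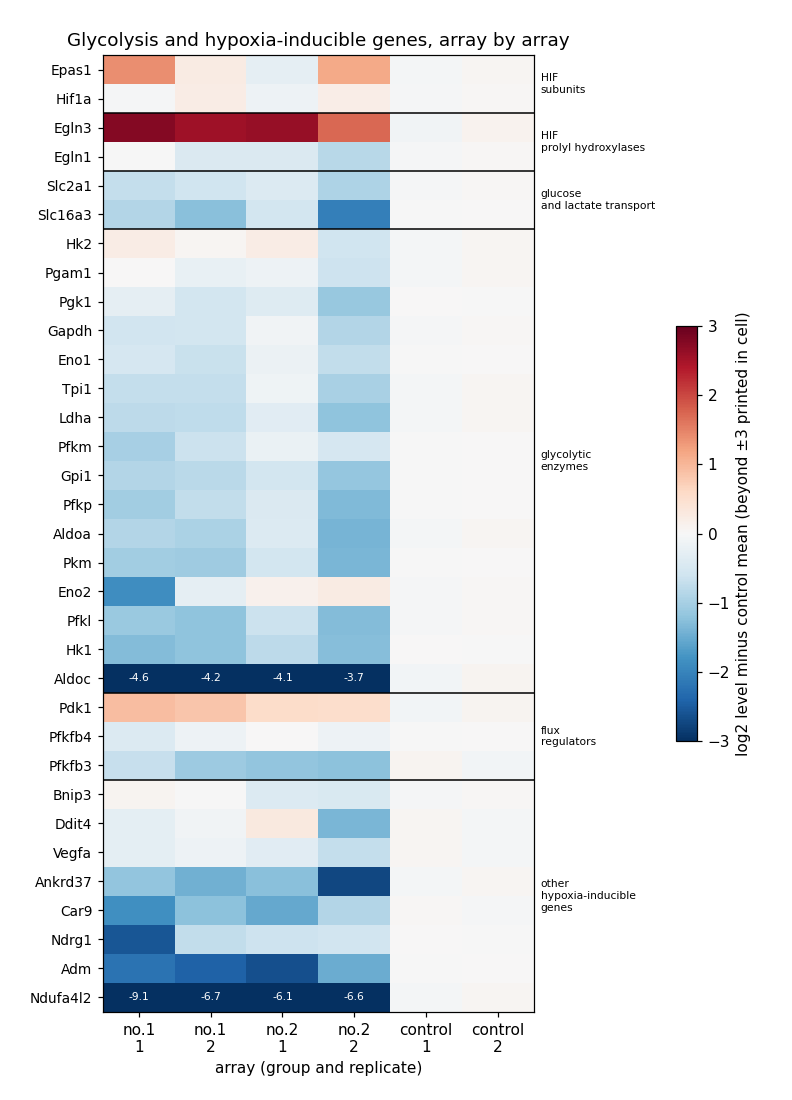
Levels of the 33 genes on each array, as the log2 level minus the mean of the 2 control arrays (colour, red higher and blue lower, from the 75th percentile scaling), with arrays in columns and genes in rows grouped by role. Egln3 is red and Aldoc and Ndufa4l2 are dark blue on all 4 tamoxifen arrays, with numbers printed where the difference passes 3, and most glycolytic enzymes are pale blue, a shade that turns on the spike-in scale.

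HIF binds a short motif, ACGTG or GCGTG in its core, and the sequence before the start of the genes was searched for both on either strand. RefSeq promoter windows (assembly GRCm38.p6, 250 bases before the annotated start) were found for 30 of the 33 members. Ndufa4l2, Ndrg1 and Epas1 were not matched. Of the 44 windows of these genes 35 (79.5%) held at least 1 match, where 38.6% of 32851 windows of all genes did. The member windows were also richer in G and C, with a median of 60.4% against 52.4%, and some windows of 1 gene overlap. Either motif stood before 27 of the 30 members, among them genes that rose, fell or were not called.

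The 4 windows given here come from Egln3, the gene that rose in both contrasts, from Aldoc and Adm, which fell in both, and from Bnip3, which was not called and held 5 matches. Capitals mark the matches, and each sequence is 5′ to 3′ on the strand of its gene. The Egln3 window is chr12:54203875-54204124 on the minus strand, with 1 match at position -229, counted back from the annotated start. Those of Aldoc (chr11:78322823-78323072, plus strand), Adm (chr7:110627407-110627656, plus strand) and Bnip3 (chr7:138909507-138909756, minus strand) hold 1, 2 and 5 matches. In Bnip3 the run CACGTG counts on both strands. A match is a description of the sequence and says nothing of binding in these cells.
Egln3: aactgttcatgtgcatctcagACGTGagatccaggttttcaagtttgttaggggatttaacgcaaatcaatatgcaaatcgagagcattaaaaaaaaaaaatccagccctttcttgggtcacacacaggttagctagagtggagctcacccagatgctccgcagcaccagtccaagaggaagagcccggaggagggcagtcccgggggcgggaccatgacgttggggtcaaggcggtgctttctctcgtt
Aldoc: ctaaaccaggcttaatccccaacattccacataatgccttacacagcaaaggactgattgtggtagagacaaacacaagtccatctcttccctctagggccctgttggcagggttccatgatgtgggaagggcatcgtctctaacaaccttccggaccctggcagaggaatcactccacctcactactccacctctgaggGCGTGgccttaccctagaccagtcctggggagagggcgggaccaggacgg
Adm: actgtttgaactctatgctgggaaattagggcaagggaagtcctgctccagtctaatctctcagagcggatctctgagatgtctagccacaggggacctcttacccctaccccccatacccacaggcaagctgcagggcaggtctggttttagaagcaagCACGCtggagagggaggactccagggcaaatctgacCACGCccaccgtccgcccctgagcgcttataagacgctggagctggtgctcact
Bnip3: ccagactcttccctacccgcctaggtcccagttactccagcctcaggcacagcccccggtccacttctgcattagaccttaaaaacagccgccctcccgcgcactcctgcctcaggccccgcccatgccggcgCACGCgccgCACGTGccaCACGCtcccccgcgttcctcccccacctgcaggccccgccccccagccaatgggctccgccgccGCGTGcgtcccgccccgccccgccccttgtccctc

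The genes of the oxygen-sensing core came apart. Hif1a, the most widely expressed alpha subunit, had levels of 3.54 and 3.81 in no.1, 3.42 and 3.78 in no.2, and 3.55 and 3.61 in control. The groups overlapped, and the log2 fold changes were 0.09 in no.1 (95% interval -0.45 to 0.63, adjusted p = 0.744) and 0.02 in no.2 (95% interval -0.53 to 0.56, adjusted p = 0.962). Epas1, the alpha subunit known best from vessels and lung, had levels of -0.11 and -1.25 in no.1, -1.77 and -0.36 in no.2, and -1.56 and -1.43 in control. The arrays of each tamoxifen group were far apart for Epas1, and neither change passed the test (0.82, adjusted p = 0.258, and 0.43, adjusted p = 0.566). On the spike-in scale both subunits were higher than in control in no.1 (Hif1a 2.03, adjusted p = 0.00162, and Epas1 2.75, adjusted p = 0.00724). In no.2 Hif1a was called higher on that scale (1.30, adjusted p = 0.0164) and Epas1 was not called (1.72, adjusted p = 0.0562).

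Egln3, a prolyl hydroxylase whose own gene is switched on by HIF, rose in both tamoxifen groups. Its levels were 1.90 and 1.67 in no.1, 1.76 and 0.86 in no.2, and -0.95 and -0.76 in control. All 4 tamoxifen arrays lay above both control arrays, with a 6.26-fold rise in no.1 (2.65 ± 0.33 SE on the log2 scale, adjusted p = 0.00346) and a 4.50-fold rise in no.2 (2.17 ± 0.33 SE, adjusted p = 0.00982). In no.1 only 4.17% of the 23060 genes moved further in either direction. Egln1, the main prolyl hydroxylase of most cells, did not pass the test in either contrast, with a value of -0.22 in no.1 (adjusted p = 0.481) and one of -0.63 in no.2 (adjusted p = 0.0989). On the spike-in scale Egln1 was called higher in no.1 (1.72, adjusted p = 0.00113) and not called in no.2 (0.66, adjusted p = 0.0688). The distance between the Egln3 and Egln1 levels of 1 array, which a shift common to the whole array cannot alter, was 2.87 wider in favour of Egln3 in no.1 than in control and 2.80 wider in no.2, with both control arrays below all 4 others. It was 2.67 and 2.63 after quantile normalization and 1.12 and 1.32 with normexp background correction, which treat bright and dim probes unequally.

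Ndufa4l2, a mitochondrial protein known as a HIF target that restrains oxygen use, had the widest change of the 33. Its levels were -3.58 and -1.23 in no.1, -0.57 and -1.13 in no.2, and 5.45 and 5.54 in control. In signal units that is 8.01 and 36.3 in no.1, 37.1 and 25.9 in no.2, and 1489 and 1568 in control. The probe was bright in control cells and dim, though well above background, on all 4 tamoxifen arrays. Relative to control the fall was 239-fold in no.1 (-7.90 ± 0.72 SE on the log2 scale, adjusted p = 0.00184) and 81.3-fold in no.2 (-6.35 ± 0.72 SE, adjusted p = 0.00496). Of all genes tested 0.0434% changed by more in no.1. The size in no.1 rests on which array is read, since leaving out no.1 replicate 1 gave -6.72 and leaving out no.1 replicate 2 gave -9.08, and with normexp background correction, which damps dim signals, it was smallest at -4.94.

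Egln3 and Ndufa4l2 are both known as HIF targets and moved in opposite directions here. The log2 fold changes of the other hypoxia-inducible members were mostly below 0, which turned for most on the spike-in scale. Of the 8 genes of that group, 3 fell and 5 were not called in no.1 (37.5%, where 26.4% of all genes fell and 47.8% were called), and 4 fell and 4 were not called in no.2 (50.0%, where 16.2% of all genes fell and 28.3% were called), while on the spike-in scale Ndufa4l2 was the single one that stayed lower with its call in either contrast.

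Adm, which encodes the vasodilator peptide adrenomedullin, fell in both groups. Its levels were 4.52 and 4.29 in no.1, 4.08 and 5.23 in no.2, and 6.71 and 6.73 in control. The fall was 4.99-fold in no.1 (-2.32 ± 0.38 SE on the log2 scale, adjusted p = 0.00648) and 4.20-fold in no.2 (-2.07 ± 0.38 SE, adjusted p = 0.0159). On the spike-in scale it remained below control by sign but not by test, at -0.38 (adjusted p = 0.520) and -0.78 (adjusted p = 0.220).

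Car9, the membrane carbonic anhydrase often used as a marker of hypoxic cells, was dim in all groups. Its levels were -2.43 and -1.82 in no.1, -2.12 and -1.46 in no.2, and -0.55 and -0.62 in control. It fell by 1.54 in no.1 (adjusted p = 0.0114) and by 1.21 in no.2 (adjusted p = 0.0369) on the log2 scale, and its second probe gave -1.42 and -0.99. On the spike-in scale the sign turned, at 0.40 and 0.077.

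Ankrd37, a small ankyrin-repeat protein induced by HIF, fell in no.2. Its levels were 1.48 and 1.22 in no.1, 1.40 and -0.08 in no.2, and 2.59 and 2.72 in control. Both groups lay below control, at -1.99 ± 0.47 SE for no.2 (adjusted p = 0.0288), while the -1.30 of no.1 did not pass (adjusted p = 0.0622). The no.2 call rests on the estimate of spread, since it was lost without either no.1 array (adjusted p = 0.0567), which leaves the no.2 values themselves unchanged.

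Vegfa, the main growth factor for blood vessels, did not pass the test in its brightest probe. The levels were 1.97 and 2.13 in no.1, 1.93 and 1.57 in no.2, and 2.34 and 2.21 in control, which gives -0.23 (adjusted p = 0.411) and -0.53 (adjusted p = 0.109). All 4 Vegfa probes were lower in both groups, and 1 of them, designed to another transcript of the gene, was called lower, at -1.82 in no.1 and -1.75 in no.2. The probes therefore differ in size by 1.59 in no.1 and 1.22 in no.2. The brightest probe was called higher in both contrasts on the spike-in scale (1.71, adjusted p = 0.000787, and 0.76, adjusted p = 0.0321).

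Bnip3, which drives the removal of mitochondria, had levels of 5.56 and 5.47 in no.1, 5.06 and 5.02 in no.2, and 5.45 and 5.51 in control. Its log2 fold change was 0.04 in no.1 (95% interval -0.41 to 0.48) and -0.44 in no.2 (adjusted p = 0.117). On the spike-in scale Bnip3 was called higher in both contrasts (1.98, adjusted p = 0.000722, and 0.85, adjusted p = 0.0329). Ndrg1, a stress-induced protein, had levels of 2.21 and 4.05 in no.1, 4.16 and 4.22 in no.2, and 4.80 and 4.77 in control. The first no.1 array stood apart for this gene, and neither contrast passed the test (adjusted p = 0.0514 and 0.438). Ddit4, an inhibitor of mTOR signalling, gave -0.20 and -0.54 and was not called.

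**Figure D2:**
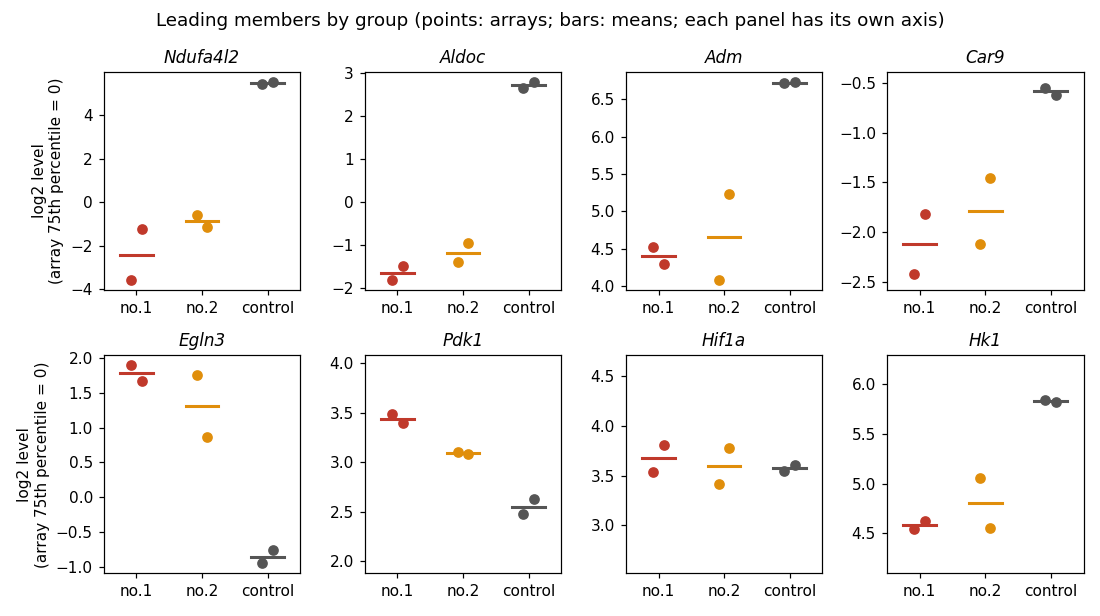
Log2 levels (array 75th percentile at 0) of 8 genes in no.1, no.2 and control, with a point for each array and a bar for the group mean, each panel with its own axis. The no.1 and no.2 points of Ndufa4l2, Aldoc, Adm and Hk1 lie below both control points and those of Egln3 and Pdk1 above them, while the Hif1a points overlap. Relative to spike-in probes Hk1 and Car9 have the opposite sign.

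Among the 16 glycolytic enzymes, none rose and 6 fell in no.1 (Hk1, Gpi1, Pfkl, Pfkm, Aldoc and Pkm), and none rose and 3 fell in no.2 (Hk1, Pfkl and Aldoc), with 15 of 16 below 0 in each contrast, though on the spike-in scale only Aldoc kept its sign among those that fell. That is 37.5% of the 16 called in no.1 and 18.8% in no.2, below the 47.8% and 28.3% of all genes called. The median of the 16 was -0.83 in no.1 and -0.77 in no.2. Apart from Aldoc, the log2 fold changes of these enzymes lay between -1.25 (Hk1) and 0.15 (Hk2) in no.1, and between -1.03 (Hk1) and 0.18 (Eno2) in no.2.

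Aldoc, the aldolase isozyme typical of brain, fell furthest. Its levels were -1.82 and -1.50 in no.1, -1.41 and -0.96 in no.2, and 2.66 and 2.80 in control. The fall was 21.0-fold in no.1 (-4.39 ± 0.24 SE on the log2 scale, adjusted p = 0.00057) and 15.1-fold in no.2 (-3.92 ± 0.24 SE, adjusted p = 0.000994). A second Aldoc probe gave -4.44 and -3.81. Aldoa, the ubiquitous aldolase that catalyses the same step, was at -0.91 in both contrasts and was not called (adjusted p = 0.0671 and 0.0877). Within an array the Aldoc level fell by 3.48 against that of Aldoa in no.1 and by 3.0 in no.2 (-2.25 and -1.65 with normexp correction).

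Hexokinases open the pathway by phosphorylating glucose. Hk1, the constitutive form, had levels of 4.54 and 4.62 in no.1, 5.05 and 4.55 in no.2, and 5.84 and 5.82 in control. It fell by 1.25 in no.1 (SE 0.23, adjusted p = 0.00859) and by 1.03 in no.2 (SE 0.23, adjusted p = 0.0250), but was higher by 0.69 and 0.26 on the spike-in scale. Hk2, the inducible form and a known HIF target, had levels of 2.57 and 2.40 in no.1, 2.57 and 1.74 in no.2, and 2.27 and 2.41 in control. The Hk2 arrays overlapped between groups, and the changes of 0.15 (95% interval -0.60 to 0.89) and -0.19 (-0.93 to 0.56) did not pass the test. Within an array, Hk2 gained 1.40 on Hk1 in no.1 and 0.84 in no.2, with both control arrays below the others. The gain was 1.08 and 0.53 after quantile normalization.

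Phosphofructokinase, the committed step, has 3 isozymes. Pfkl, the liver-type subunit, had levels of 3.37 and 3.27 in no.1, 3.84 and 3.19 in no.2, and 4.44 and 4.52 in control, and fell in both (-1.16, adjusted p = 0.0150, and -0.97, adjusted p = 0.0403). Pfkm, the muscle-type subunit, had levels of 2.12 and 2.48 in no.1, 2.93 and 2.61 in no.2, and 3.10 and 3.14 in control, and fell in no.1 (-0.82, adjusted p = 0.0275) but was not called in no.2 (-0.35, adjusted p = 0.267). Pfkp, the platelet-type subunit, was at -0.90 and -0.88, not called in its brighter probe, while its second probe was called at -1.0 in each contrast. All 3 subunits lay below control by value, and on the spike-in scale all 3 lay above it.

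Gpi1, the isomerase after hexokinase, had levels of 7.73 and 7.81 in no.1, 8.08 and 7.46 in no.2, and 8.59 and 8.64 in control. It was called lower in no.1 (-0.85, adjusted p = 0.0364) and not in no.2, with the same value (-0.85, adjusted p = 0.0525). Its 3 probes spanned 0.17 in no.1.

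Gapdh, often used as a reference for RNA level, had levels of 9.17 and 9.19 in no.1, 9.63 and 8.87 in no.2, and 9.70 and 9.79 in control. It was not called (-0.56, adjusted p = 0.146, and -0.50, adjusted p = 0.222), and on the spike-in scale it was called higher in no.1 (1.37) and in no.2 (0.79). Its 6 probes ranged over 0.73 in no.1 and did not share a sign. Tpi1, Pgk1, Pgam1 and Eno1, which carry the chain from triose phosphate to phosphoenolpyruvate, were not called. In their brightest probes they lay between -0.71 and -0.11 in no.1 and between -0.77 and -0.39 in no.2. A dimmer Eno1 probe gave -0.03 and -0.17. The dimmer Tpi1 probes gave -0.41 and -0.35 in no.1 and -0.40 and -0.35 in no.2. A dimmer Pgam1 probe gave -0.17 and -0.45.

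Pkm, the pyruvate kinase of most tissues, had levels of 7.58 and 7.54 in no.1, 8.07 and 7.25 in no.2, and 8.61 and 8.63 in control. It fell in no.1 (-1.06, adjusted p = 0.0299) and was not called in no.2 (-0.96, adjusted p = 0.0575). A second, dimmer probe of Pkm gave -0.21 and -0.32. Ldha, which makes lactate, was at -0.77 in both contrasts and not called (adjusted p = 0.0826 and 0.105). A second, dimmer Ldha probe gave -0.11 and -0.51.

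Eno2, the neuronal enolase, was the enzyme with the widest spread in no.1. Its levels were -0.60 and 1.01 in no.1, 1.40 and 1.52 in no.2, and 1.24 and 1.31 in control. Both no.1 arrays lay below control and both no.2 arrays above it, and neither contrast passed the test (-1.07, adjusted p = 0.120, and 0.18, adjusted p = 0.796). Eno2 was above control in both groups relative to the spike-in probes, at 0.87 in no.1 and at 1.47 in no.2, where it was called (adjusted p = 0.0408).

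The transporters at either end of the pathway were not called. Slc2a1 (GLUT1), the main glucose carrier of fibroblasts, had levels of 5.05 and 5.17 in no.1, 5.35 and 4.84 in no.2, and 5.72 and 5.81 in control. All 4 tamoxifen arrays lay below control, by 0.66 (95% interval of the log2 fold change -1.23 to -0.084, adjusted p = 0.0605) and 0.67 (-1.24 to -0.095, adjusted p = 0.0777). Slc16a3 (MCT4), the lactate exporter of glycolytic cells, was at -1.06 (adjusted p = 0.113) and -1.30 (adjusted p = 0.0874). Slc2a1 turned on the spike-in scale, called higher in no.1 (1.28, adjusted p = 0.00226) and at 0.62, not called, in no.2, while Slc16a3 gave 0.88 and -0.014.

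The 3 regulators of flux divided. Pdk1, the kinase that shuts pyruvate out of the mitochondrion by inhibiting pyruvate dehydrogenase, had levels of 3.48 and 3.39 in no.1, 3.10 and 3.09 in no.2, and 2.48 and 2.63 in control. It rose in no.1 (0.89, SE 0.19, adjusted p = 0.0124) and was not called in no.2 (0.54, SE 0.19, adjusted p = 0.0738). The 4 Pdk1 probes did not agree in sign, since a second bright probe gave 0.87 and 0.63 and a dim one gave -1.13 and -0.97. Averaged over its probes Pdk1 was at 0.22 in no.1 (adjusted p = 0.398).

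Pfkfb3, which makes the activator of phosphofructokinase and is known as the glycolysis-promoting form, had levels of 1.66 and 1.26 in no.1, 1.15 and 1.11 in no.2, and 2.42 and 2.27 in control. It fell in both (-0.89, adjusted p = 0.0193, and -1.21, adjusted p = 0.0146), and on the spike-in scale it was above control (1.05 and 0.072). Pfkfb4, its relative, was not called (-0.28 and -0.07), but was called higher on the spike-in scale (1.66, adjusted p = 0.00119, and 1.21, adjusted p = 0.00805). Within an array Pfkfb4 gained 0.61 on Pfkfb3 in no.1 and 1.14 in no.2 (0.27, with overlapping groups, and 0.73 with normexp correction).

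**Figure D3:**
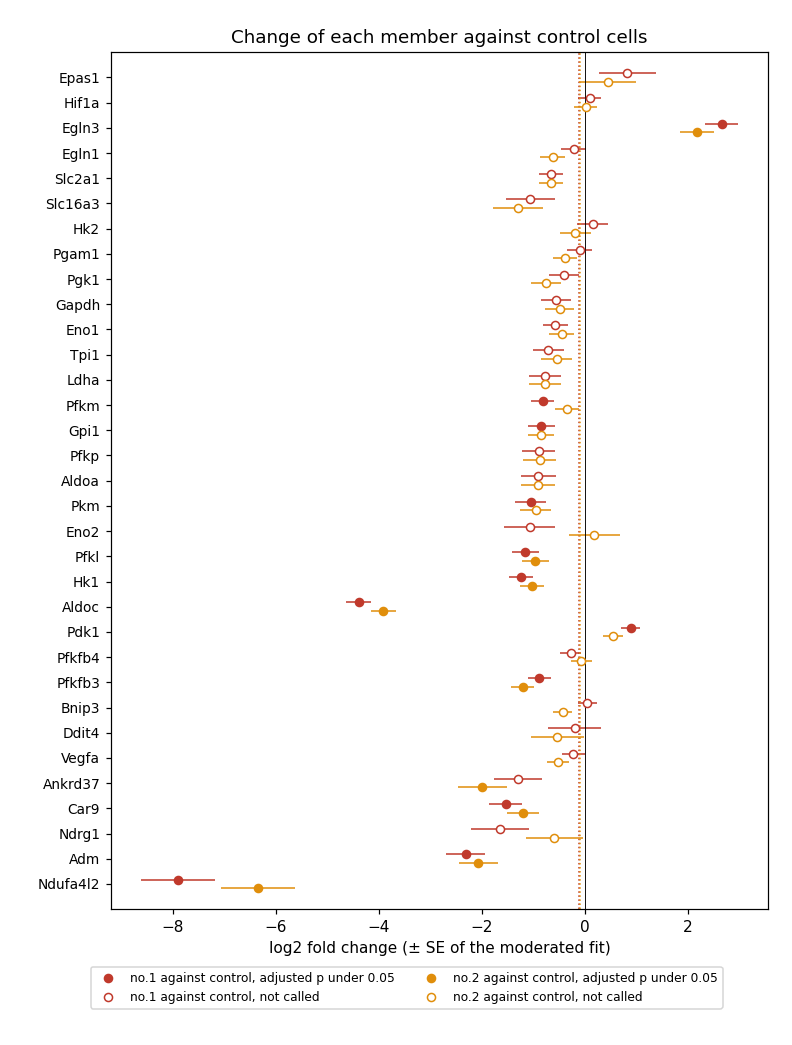
Log2 fold change of each of the 33 genes against control in no.1 (red) and no.2 (orange), with bars for the moderated SE, filled points for adjusted p under 0.05 and dotted lines at the median of all genes tested (-0.12 and -0.10). Ndufa4l2 (-7.90 and -6.35) and Aldoc (-4.39 and -3.92) lie far left and Egln3 (2.65 and 2.17) far right, while most others sit between -1.5 and 0, a range that lies mostly above 0 on the spike-in scale.

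**Figure D4:**
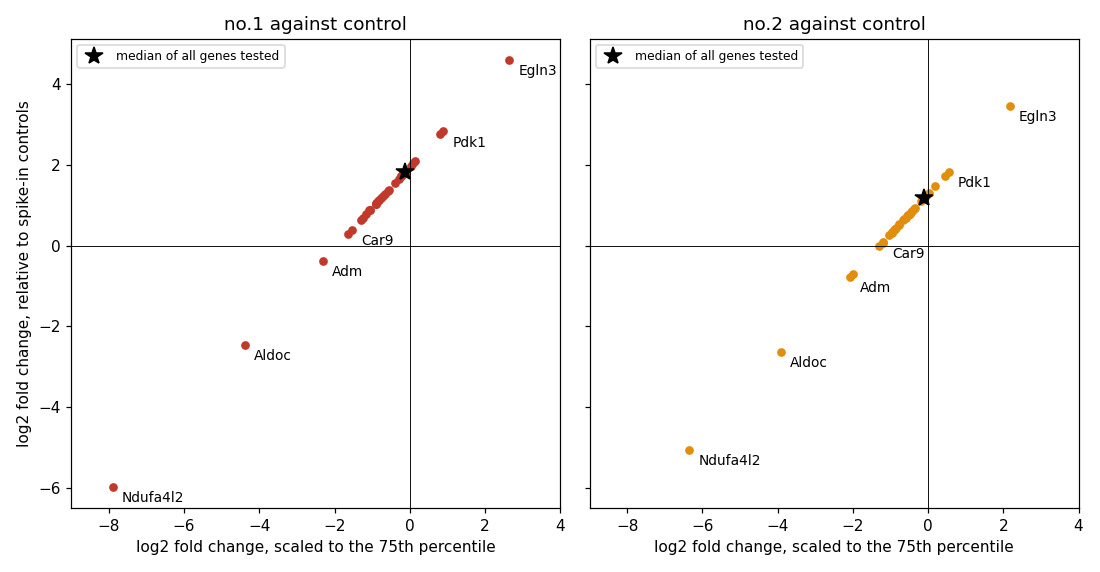
The 33 log2 fold changes under the 75th percentile scaling (horizontal) against those relative to 7 spike-in probes (vertical), for no.1 and no.2, with a star at the median of all genes tested. Points left of 0 and above 0 are genes whose sign depends on the scale, whereas Aldoc, Adm and Ndufa4l2 are below 0 and Egln3 and Pdk1 above 0 on both.

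**Figure D5:**
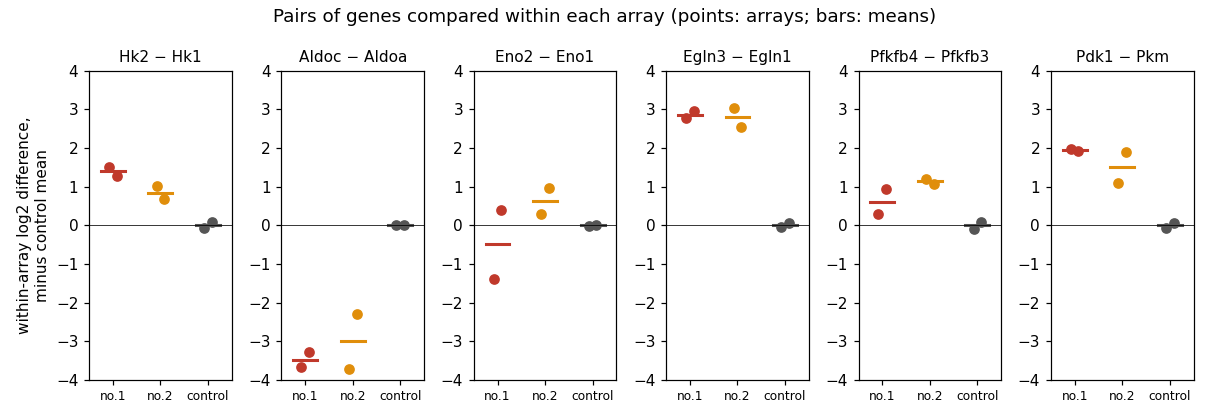
Differences in log2 level between 2 genes of the same array, minus the mean of control, for 6 pairs (points are arrays, bars are group means). Both tamoxifen groups are above control for Egln3 minus Egln1 (2.87 and 2.80), Hk2 minus Hk1 and Pdk1 minus Pkm, below it for Aldoc minus Aldoa (-3.48 and -3.0), and no.1 straddles control for Eno2 minus Eno1.

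How much rests on the arrays chosen was examined by leaving each out. Ndufa4l2, Aldoc and Egln3 kept their call and direction in both contrasts under all 17 alternatives tried, and no other called member did so in every contrast in which it was called. In no.1 the 10 members that fell became 5 without no.1 replicate 1, 3 without control replicate 1, 4 without control replicate 2, and 19 without either no.2 array, which enters that contrast through the shared spread. In no.2 the 8 became 18 when no.2 replicate 1 was left out, 4 when no.2 replicate 2 was, and 2 without either control array. The control arrays lay close together, and with both averaged into 1 sample 4846 of all genes were called in no.1 and 1246 in no.2. Egln3 was then the 1 member called higher in each contrast, with Adm, Aldoc and Ndufa4l2 called lower in no.1 and Aldoc and Ndufa4l2 in no.2.

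Continued exposure to tamoxifen was the contrast of no.1 with no.2. In it 0 of the 33 members and 0 of the 23060 genes tested (0%) were called by limma, with 2 members and 3825 genes at an unadjusted p under 0.05. With no.1 replicate 2 left out 117 genes were called, and with no filter on dim probes 8296, with 0 members among either. The median of the members was 0.0026. The 6 members of lowest p were Bnip3 (0.47, adjusted p = 0.290), Eno2 (-1.25, adjusted p = 0.295), Ndufa4l2 (-1.55, adjusted p = 0.327), Pfkm (-0.47, adjusted p = 0.338), Aldoc (-0.48, adjusted p = 0.354) and Ndrg1 (-1.06, adjusted p = 0.366). For each of these the 2 no.1 arrays lay on 1 side of both no.2 arrays, as they did for 10 of the 33 members (30.3%) and for 47.9% of all genes tested. The intervals were wide. The 95% interval of Bnip3, the narrowest of the 33, ran from 0.030 to 0.92, and that of Ndufa4l2 from -3.31 to 0.20.

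Genes of the same pathways that are not among the 33 also moved in both directions. Of 23 other glycolysis genes tested, 4 rose and 9 fell in no.1 (56.5% called, against 47.8% of all genes), and 1 rose and 8 fell in no.2 (39.1% against 28.3%), though 4 of those 9 and 3 of those 8 lay above control on the spike-in scale. Ldhd, a mitochondrial lactate dehydrogenase for the D form, was well above background on both control arrays and on none of the other 4, and was at least 17.9-fold lower in no.1 (adjusted p = 0.00354) and at least 11.7-fold lower in no.2 (adjusted p = 0.0093). Hk3 (-2.15 and -2.18), which also phosphorylates glucose, fell in both, as did the pyruvate dehydrogenase kinase Pdk2 (-2.29 and -0.98), and the monocarboxylate carrier Slc16a7 (-2.06 and -2.30). Pfkfb1, another bifunctional regulator of phosphofructokinase, rose in both (1.79 and 1.34). On the spike-in scale Hk3 and Slc16a7 remained below 0 in both contrasts and Pdk2 turned to 0.30 in no.2. The fall of Slc16a7 rests on its brightest probe, which was dim and well above background on 5 arrays. Its call was lost in both contrasts when its 4 probes were averaged, and in no.1 also on the spike-in scale. Across the alternatives the Slc16a7 change ran from -2.23 to -0.045 in no.1 and from -2.60 to -0.296 in no.2.

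Of 15 other regulators of the HIF pathway, 5 rose and 4 fell in no.1 (60.0% called, against 47.8% of all genes), and none rose and 2 fell in no.2 (13.3% against 28.3%), and every gene that fell lay above control on the spike-in scale. The third prolyl hydroxylase, Egln2, fell in both (-1.19 and -0.75), as did Os9 (-1.43 and -0.89), a lectin of the endoplasmic reticulum. Cul2 (1.12), a scaffold of the VHL ubiquitin ligase, and Cited2 (1.01), which competes with HIF for its coactivator, rose in no.1 and were not called in no.2 (0.46 and 0.44).

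Of 33 other hypoxia-inducible genes tested, 5 rose and 13 fell in no.1 (54.5% called, against 47.8%), and 4 rose and 12 fell in no.2 (48.5% against 28.3%), though 8 of those 13 and 4 of those 12 lay above control on the spike-in scale. The iron carrier transferrin (Trf, -5.54 and -4.66) and the secreted glycoprotein Stc2 (-3.24 and -2.68) fell in both and remained lower on the spike-in scale (Trf -3.61 and -3.37, Stc2 -1.30 and -1.40). The transferrin receptor Tfrc rose in no.1 (3.24, adjusted p = 0.00469) and gave 1.55 in no.2 (adjusted p = 0.0526). Igfbp3, which binds insulin-like growth factors, fell in no.1 (-3.47) and was not called in no.2 (-1.44, adjusted p = 0.189). The chemokine Cxcl12 rose in both (2.21 and 2.60).

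Where pyruvate enters the mitochondrion, 2 of 11 genes rose and 2 fell in no.1 (36.4% called, against 47.8%), and 1 rose and none fell in no.2 (9.09% against 28.3%). Pdha1, a subunit of pyruvate dehydrogenase, rose in no.1 (1.26, adjusted p = 0.0173) and was not called in no.2 (0.80, adjusted p = 0.0899). Pdp1, the phosphatase that switches the enzyme on, rose in both (1.06 and 1.00). Pdp2, its relative, and pyruvate carboxylase (Pcx) fell in no.1 (-0.95 and -0.87) and lay above control there on the spike-in scale. In the pentose phosphate pathway, which branches from glucose 6-phosphate, 1 of 8 genes rose and 3 fell in no.1 (50.0% called, against 47.8%), and none rose and 3 fell in no.2 (37.5% against 28.3%), but the 3 that fell lay above control on the spike-in scale. Those 3 were Pgls (-1.63 and -1.25), H6pd (-1.46 and -1.02) and Pgd (-1.22 and -1.0), which act in its oxidative arm, and the gene that rose was Rpia (0.70).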

How the data were processed

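Total RNA of 6 samples was amplified, labelled with Cy3 and hybridised to 1-colour Agilent arrays, per the labels. The deposited intensity values were extracted with Agilent Feature Extraction (12.1.1.1 per the file headers, 9.5.1.1 in the submitters' processing notes). The headers record background subtraction and detrending inside each array and no scaling between arrays. The authors' value table also holds intensity values, with processing not stated. They matched quantile normalization of the processed signal, on a linear scale, to within 1% for 100% of values on the array with the lowest share (column median 5.16). None of its columns (0) lacked a sample.

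Here log2 of the processed signal was taken per probe, averaged over spots, with outlier spots left out where others remained, and the array's 75th percentile over 56605 non-control probes was subtracted. Accessions were matched to symbols in a RefSeq table (GRCm38.p6, used for names because the file headers name mm9), which named 32994 probes (58.3%). The probe of highest mean stood for its gene, and the gene was tested if that probe was well above background on every array of 1 group or more, which left 23060 genes, 14081 with a symbol. Under R 4.3.3 and the package data.table (version 1.17.8), limma 3.58.1 fitted (lmFit, then eBayes) 1 mean per group over all 6 arrays, 3 residual degrees of freedom, and Benjamini-Hochberg adjustment over all genes at 0.05. No probe was saturated, and the number of arrays limits the precision. The same fit was run on simulated data with 200 changed genes and independent noise. That is a far smaller share than was called here, so the run does not speak for the accuracy of these calls.

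The members and lists were chosen with earlier results of these data known. Each of the 33 members is named or counted. Values by array are given for those called (at most 12 per contrast and direction). They are also given for 9 set by role whatever their call, some of which were called, and for the 6 of lowest p between no.1 and no.2. At most 4 called genes of largest change are named per other list and contrast. The alternatives were another background correction (normexp, on median signals because the files hold no mean signal column), other scalings, the value table, other filters, the mean over probes, other sets of arrays, a replicate block and control arrays averaged. The pairs compared within an array were chosen after seeing the data.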

Additional observations from a re-analysis of the deposited data

Results flagged for a closer look

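Eno2, the neuronal enolase, lay on opposite sides of control in the tamoxifen groups under the 75th percentile scaling, and above control in both on the spike-in scale (0.87, adjusted p = 0.157, in no.1 and 1.47, adjusted p = 0.0408, in no.2). Its levels were -0.60 and 1.01 in no.1, 1.40 and 1.52 in no.2, and 1.24 and 1.31 in control, so both no.1 arrays lay below both control arrays and both no.2 arrays above them. The difference of no.1 against no.2 was -1.25 on the log2 scale and did not pass limma's test (adjusted p = 0.295). The lower of the no.1 values is that of the first array.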

How the results depend on the processing

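The counts of calls, the members' medians and the change of each called gene named in the text were recomputed under 17 alternatives, the within-array pairs under the other scalings and normexp only, and the marker sums under none. On the spike-in scale the changes that reversed were Car9 (0.40 in no.1 and 0.077 in no.2), Hk1 (0.69 and 0.26), Pfkfb3 (1.05 and 0.072), Pfkl (0.78 and 0.32), and in no.1 Gpi1 (1.09), Pfkm (1.11) and Pkm (0.88). Outside the 33 they were Egln2 (0.74 and 0.54), Os9 (0.51 and 0.40), Pgls (0.31 and 0.040), H6pd (0.47 and 0.26), Pgd (0.72 and 0.29), in no.1 Pcx (1.06), Pdp2 (0.99) and S100a4 (0.20), and in no.2 Pdk2 (0.30). Trf, Stc2 and Cxcl12 kept their calls in both contrasts under all 17. The calls over all genes were then 19395 in no.1 and 15565 in no.2, members called higher 25 and 13, members called lower 2 and 2, and the median of the members 1.16 and 0.66, with 0.65 between no.1 and no.2. Of all calls 44.8% were higher in no.1 and 42.8% in no.2 under the main scaling, 69.7% and 69.0% with the median probe, 54.3% and 54.7% with quantile normalization, and 97.8% and 96.6% on the spike-in scale. Normexp correction gave 5 members higher and 6 lower in no.1, 2 higher in no.2, and medians of -0.067, -0.24 and, between no.1 and no.2, 0.27. The medians of all genes were then -0.23, -0.12 and -0.11. Quantile normalization gave medians of -0.29 and -0.33 and 2 members higher in no.2, the value table -0.29 and -0.32 and 2, and the median probe -0.34 and -0.31, with 5 members lower in each contrast and 2 higher in no.2. Without a filter 24873, 16476 and, between no.1 and no.2, 8296 genes were called, with 2 members higher in no.2. Averaging over probes left 1 member higher in no.1, and the arrays of the 2 groups alone gave 19 lower in no.1. With control averaged (2 residual degrees of freedom) 4846 and 1246 genes were called, and 1 member was higher and 3 lower in no.1, and 2 lower in no.2. The cause was not tested for any of these. Leaving out 1 array in turn gave 4999 to 12054 genes called in no.1, 1298 to 6367 in no.2 and 0 to 117 between them. Members called lower ran from 3 to 19 in no.1 and from 2 to 18 in no.2, and members called higher from 1 to 2 in no.1. The members' median ran from -0.92 to -0.41 in no.2 and from -0.30 to 0.31 between no.1 and no.2. With a replicate block, 2 members rose and 12 fell in no.1, and 1 rose and 8 fell in no.2. The shared replicate numbers do not pair the samples by label, and the correlation of same-numbered deviations was 0.17 for no.1 with no.2, -0.035 for no.1 with control and -0.017 for no.2 with control. Among dim genes such as Car9, signal near background limits the size of a change.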
